A study of Mus musculus with 20 samples.

Results

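The left ventricles with the most Oga reads after 2 weeks of induction were compared with Control left ventricles of the same time. The members were chosen by their Oga level and are the dnOGAh-Tg libraries with more than 20000 normalized read counts of Oga, which are dnOGAh-Tg 3, with the title code F13, and dnOGAh-Tg 4 and 5, with the code F14. They were set against all 5 Control libraries, of which Controls 1 and 2 carry the code F11 and Controls 3, 4 and 5 the code F14. These are 8 of the 20 libraries of the series, which holds 5 Control and 5 dnOGAh-Tg libraries at each of 2 and 24 weeks. Genes with a value of 10 or more in at least 3 of the 8 columns were kept, 15007 of 19872 listed. Of the genes kept, 114 passed through the 3 dnOGAh-Tg columns alone and 128 through Control columns alone. Since a gene of the first kind had to be higher in dnOGAh-Tg, the 99 of them called higher (86.8%) support nothing.

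Mice labelled dnOGAh-Tg make a dominant-negative form of the enzyme OGA in the heart, which doxycycline in the food switches on, and the series title speaks of the protein modification in cardiomyocytes. Tissue was the whole left ventricle in every library, so each value sums over all its cell types. The markers fit heart muscle, with Myh6, the myosin of the working heart muscle, at 450485 or more normalized read counts in each of the 8 libraries. Whether atrial tissue was present is not tested by Myh6. The labels give neither the promoter that drives the transgene, nor the alleles the Control mice carry, nor strain, age or sex, and they do not say what the title codes mark. They also do not say outright that each library is a separate animal, so the p-values cover spread among libraries, which may be technical. The 2-week Controls held 22804712 to 31906006 reads on listed genes and the 3 dnOGAh-Tg libraries 24641225 to 30879018. Reads on genes of the mitochondrial genome made up 12.8 to 14.5% and 11.3 to 14.1%.

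O-GlcNAc is a single sugar that is attached to serine or threonine in proteins of the nucleus, cytoplasm and mitochondria. The transferase OGT attaches it and the hydrolase OGA, encoded by Oga, takes it off. In heart muscle it sits on contractile, calcium-handling, transcriptional and mitochondrial proteins, and its level rises in hypertrophied and diabetic hearts.

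Oga (ENSMUSG00000025220, chromosome 19, 45738698 to 45772276 on GRCm39) chose the members, so its values are a description without a test. Controls 1 to 5 had 3983, 2565, 4269, 3852 and 3074 normalized read counts, and dnOGAh-Tg 3, 4 and 5 had 56985, 61206 and 42127. The libraries nearest the limit of 20000 were, below it, dnOGAh-Tg 1 and 2, with the code F11, at 8608 and 6406, and above it dnOGAh-Tg 5, so that no library lay close to it. Relative to the Control mean, the 3 libraries lay at 16.1, 17.2 and 11.9 times and the F11 libraries at 2.43 and 1.81 times. No source used here says whether transgene reads map to Oga.

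The Control group is not uniform. Gm37194, a predicted gene on chromosome 14, had 1, 1, 0 and 1 reads in Controls 1 to 4 but 113 in Control 5, and 99 to 191 in the 5 dnOGAh-Tg libraries, the F11 ones included. Cebpb, which encodes a transcription factor of inflammation and metabolism, had 134, 162, 124 and 164 normalized read counts in Controls 1 to 4 and 1866 in Control 5. It had 1565, 1209 and 1566 in dnOGAh-Tg 3, 4 and 5, and 1563 and 1202 in the F11 libraries. Both genes therefore separate Controls 1 to 4 from Control 5 and all dnOGAh-Tg libraries, and neither follows Oga. The limma call of Cebpb (log2 change 2.56 with SE 0.72 and limma adjusted p = 0.019) turned to -0.38 against Control 5 and was lost without dnOGAh-Tg 3 (2.502, adjusted p = 0.0669) or 5 (2.501, adjusted p = 0.0755). What distinguishes Control 5 from the other Controls is not given in the labels, so the results below are also set against Control 5, as the mean of the 3 dnOGAh-Tg libraries minus that library on the log2 scale. On the first principal component, with 53.5% of the variance, all 3 dnOGAh-Tg libraries were on one side and all 5 Controls on the other. On the second, with 14.7%, Control 5 lay apart from the rest.

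**Figure D1:**
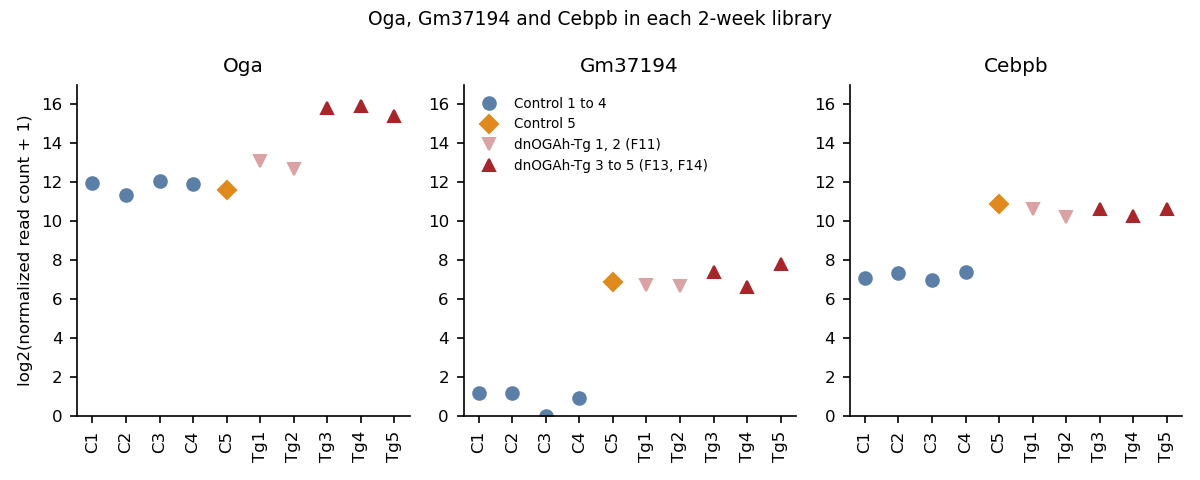
Oga, Gm37194 and Cebpb in each 2-week library, as log2(normalized read count + 1); each point is 1 library, C1 to C5 are Controls and Tg1 to Tg5 dnOGAh-Tg. Oga sets apart dnOGAh-Tg 3 to 5, while Gm37194 and Cebpb put Control 5 beside all 5 dnOGAh-Tg libraries.

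Across all genes, limma-trend on log2(normalized read count + 1) called 2475 genes higher in the 3 dnOGAh-Tg libraries, 16.5% of those tested, and 2589 lower, 17.3%, at an adjusted p under 0.05. These shares are the background for the counts of list members below. The groups did not overlap in 4980 genes, 33.2%. A change of at least 2-fold was reached by 878 genes called higher, 5.85% of those tested, and 425 called lower, 2.83%. Against Control 5, all 3 dnOGAh-Tg libraries lay on the side of the call in 2090 of the 2475 higher genes (84.4%) and 2315 of the 2589 lower genes (89.4%). The median share of the change left was 0.718. Control 5 is 1 of the 5 Controls that made these calls, so the calls are partly selected for a difference from it. The same holds for the list members counted beyond Control 5 below. With the Gm37194 split of the libraries as a covariate, which leaves Control 5 as the only Control on the dnOGAh-Tg side, 582 genes (3.88%) were called higher and 412 (2.75%) lower. Counts of list members called with this covariate, below, are over the whole list. Of the calls above, 456 (18.4%) and 367 (14.2%) were among them. Without Control 5 the counts were 3104 and 3284. Of these calls, in both directions together, 4623 had all 3 dnOGAh-Tg libraries on the side of the call from Control 5. Their median share left, of the change from the mean of all 5 Controls, was 0.588. Without dnOGAh-Tg 3 the counts were 1285 and 1494, and without dnOGAh-Tg 5 1342 and 1376. Against Control 5 alone limma called 714 genes higher (4.76%) and 321 lower (2.14%), and in the F14 libraries 648 (4.32%) and 528 (3.52%). On recovered reads edgeR called 33.2% of genes and DESeq2 37.2%. With all 5 dnOGAh-Tg libraries against the 5 Controls limma called 0 genes, with 3664 at an unadjusted p under 0.05.

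The 10 largest rises were led by genes of tissue stress and inflammation and of stretched muscle, together with an atrial hormone. They were taken from called genes whose groups do not overlap and are ranked by the smaller of the difference from Controls 1 to 4 and that from Control 5. Their difference from Control 5 was therefore part of the selection and is no check. The fit with the split as a covariate estimates that same difference, so calls kept there are no check either. Saa3, an acute-phase serum amyloid protein, had 1.25, 3.78, 2.198, 0.908 and 1.04 normalized read counts in Controls 1 to 5 and 92.4, 60.5 and 96.9 in dnOGAh-Tg 3 to 5 (log2 change 4.96). Mmp12, the elastase of macrophages, had 1.25, 1.26, 6.59, 0.908 and 1.04 in Control and 96.1, 87.9 and 59.3 in dnOGAh-Tg (log2 change 4.88). Lists of values run from Control 1 to Control 5 and from dnOGAh-Tg 3 to dnOGAh-Tg 5, ranges give the lowest and highest library, and changes are on the log2(value + 1) scale with their standard error (SE). Both were near the floor in every Control, so the size of the change depends on the pseudocount of 1. The F11 libraries were at 0.566 and 0 for Saa3 and 9.61 and 9.03 for Mmp12, close to the Controls. Ccl8, a chemokine that draws monocytes, rose from 3.74–10.9 to 151–259.9 (log2 change 4.72 with SE 0.33 and limma adjusted p = 1.44e-05). Spp1, which encodes the secreted glycoprotein osteopontin, rose from 3.297–18.9 to 166–253 (log2 change 4.75 with SE 0.46 and limma adjusted p = 0.000109). Il1rn, the antagonist of the interleukin-1 receptor, was at 0, 7.55, 1.099, 3.63 and 0 in the Controls and at 87.7, 56.6 and 44.5 in the dnOGAh-Tg libraries (log2 change 4.67). Saa3, Mmp12 and Il1rn reached 10 only in the dnOGAh-Tg columns, which fixed their direction, so they are described without a test. Against Control 5 the differences were 4.81 to 5.34, and 5.94 for Il1rn, which was at 0 in that library.

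Star, which brings cholesterol to the inner mitochondrial membrane for steroid synthesis, was at 26.2, 21.4, 19.8, 13.6 and 21.8 in Controls 1 to 5 and at 609, 392 and 349 in dnOGAh-Tg 3 to 5 (log2 change 4.37 with SE 0.25 and limma adjusted p = 4.30e-06). Nmrk2, a muscle kinase that makes the NAD precursor nicotinamide mononucleotide, was at 105, 166, 29.7, 49.9 and 68.4 in Control and 1746, 879.5 and 819.5 in dnOGAh-Tg (log2 change 3.91 with SE 0.46 and limma adjusted p = 0.000311). Timp1, an inhibitor of matrix metalloproteases, was at 14.98, 86.9, 16.5, 24.5 and 16.6 in Control and 540.3, 463 and 565 in dnOGAh-Tg (log2 change 4.35 with SE 0.47 and limma adjusted p = 0.00019), with Control 2 the highest Control. Against Control 5, which entered the ranking, the differences were 4.27, 3.96 and 4.89. All 3 calls held with the split as a covariate (4.27, adjusted p = 0.000576 for Star, 3.96, adjusted p = 0.011 for Nmrk2 and 4.89, adjusted p = 0.00443 for Timp1, by limma).

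**Figure D2:**
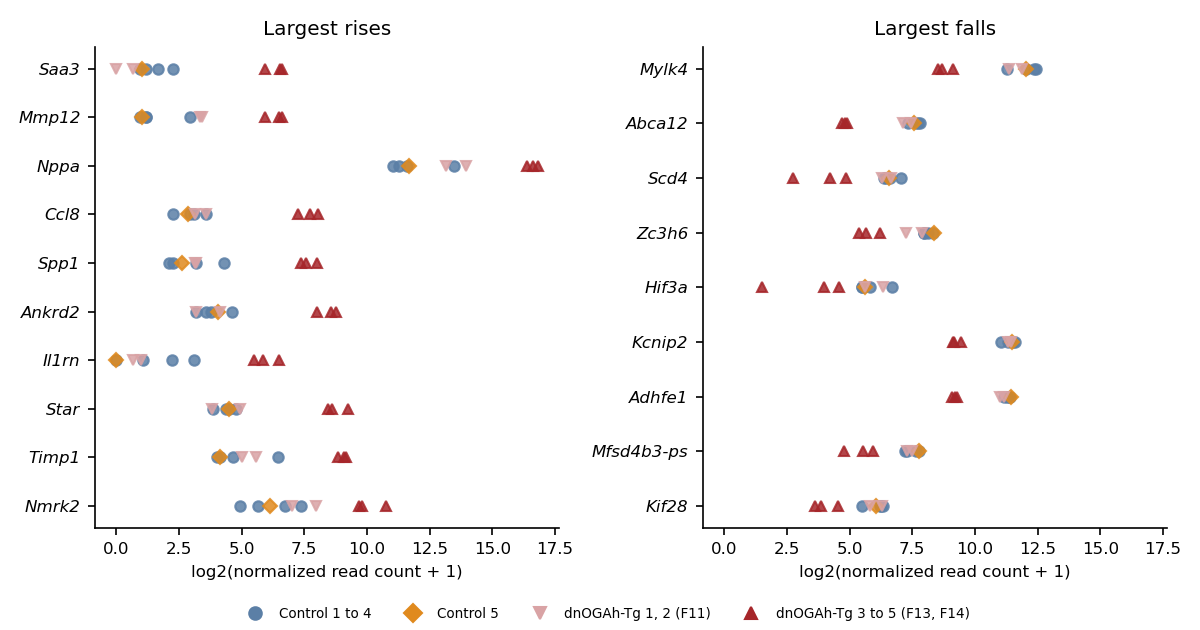
The 10 largest rises and 9 of the 10 largest falls in each 2-week library, as log2(normalized read count + 1); each symbol is 1 library. The genes were selected for dnOGAh-Tg libraries with codes F13 and F14 beyond all 5 Controls, and the F11 dnOGAh-Tg libraries lie nearer to the Controls.

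Natriuretic peptides, hormones that the stretched heart releases, were far higher. Nppa, the atrial peptide (ENSMUSG00000041616), had 2500.4, 11414, 2081, 3103 and 3243 normalized read counts in Controls 1 to 5. It had 99561, 116150 and 84967 in dnOGAh-Tg 3 to 5 (log2 change 4.79 with SE 0.43 and limma adjusted p = 6.78e-05), and 9000.01 and 15734 in the F11 libraries. Control 2 was the highest Control, and it too lay below every dnOGAh-Tg library. Nppb, the B-type peptide made mostly in the ventricle, had 5404, 6711, 4024, 6349 and 5756 in Control and 47512, 26013 and 28823 in dnOGAh-Tg (log2 change 2.56 with SE 0.21 and limma adjusted p = 3.59e-05). Against Control 5 the differences were 4.94 and 2.51.

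The rest of the fetal and hypertrophy list moved in both directions. Acta1, the skeletal actin that the fetal and overloaded ventricle makes, rose from 13634–32909 to 39332–73495 (log2 change 1.17 with SE 0.29 and limma adjusted p = 0.0112), a call lost without dnOGAh-Tg 3 (0.91, adjusted p = 0.0614). Uchl1, a ubiquitin hydrolase, rose from 334–487 to 1012–1095 (log2 change 1.46 with SE 0.14 and limma adjusted p = 9.35e-05). Ccn2, a matrix-cell protein induced by stretch, rose from 3125–6564 to 6502–10523 with overlapping groups (log2 change 0.96 with SE 0.22 and limma adjusted p = 0.00842). Against Control 5, Acta1, Uchl1 and Ccn2 differed by 1.32 to 1.91. Myh7, the slow myosin heavy chain of the fetal ventricle, did not pass (49190 ± 1594 in Control, SD, n = 5, and 40077 ± 6227 in dnOGAh-Tg, SD, n = 3, log2 change -0.31 with SE 0.12 and limma adjusted p = 0.0747), though it did without dnOGAh-Tg 5 (-0.43, adjusted p = 0.0273) and by DESeq2 (-0.29, adjusted p = 0.0383). Of 22 members tested, 11 rose and 2 fell, with a median log2 change of 0.51 beside -0.01 over all genes tested. Against Control 5 that median was 0.42 (all genes -0.02), and 9 members rose with the split as a covariate.

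Among Z-disc and ankyrin-repeat genes, which respond to stretch of the muscle, Ankrd2 was the largest rise. It had 23.7, 12.6, 10.99, 8.17 and 15.5 in the Controls and 433, 254 and 374 in dnOGAh-Tg 3 to 5 (log2 change 4.59 with SE 0.32 and limma adjusted p = 1.44e-05), and 16.4 and 8.03 in the F11 libraries. Its relative Ankrd1, a nuclear and sarcomeric cofactor, rose from 56034–91318 to 137675–164617 (log2 change 1.09 with SE 0.17 and limma adjusted p = 0.00124). Synpo2l, an actin-bundling protein of the Z-disc, rose from 4066–5959 to 8257–10037 (log2 change 0.85 with SE 0.13 and limma adjusted p = 0.00143). Cmya5, a large protein at the Z-disc and the junctional membrane, fell from 15904–29024 to 6749–9821 (log2 change -1.46 with SE 0.22 and limma adjusted p = 0.00116). Against Control 5 these genes differed by 1.06 to 4.39 and, for Cmya5, by -1.03. Of 18 members 6 rose and 2 fell, and all of those calls had the 3 dnOGAh-Tg libraries beyond Control 5, with 3 rises and 0 falls called with the split by limma.

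The sarcomere list held few rises. Myh6, the fast myosin heavy chain of the adult mouse ventricle, whose sequence is close to that of Myh7 so that reads may be split between them, went from 785802 ± 96269 (SD, n = 5) to 473715 ± 21864 (SD, n = 3; log2 change -0.72 with SE 0.18 and limma adjusted p = 0.0129). That call was lost with quantile normalization (-0.33, adjusted p = 0.119), with no filter (-0.72, adjusted p = 0.0599) and without dnOGAh-Tg 3 (-0.69, adjusted p = 0.0566). Myom3, an M-band protein, rose from 145–185 to 292–339 (log2 change 0.92 with SE 0.13 and limma adjusted p = 0.00104). Against Control 5 Myh6 and Myom3 stood at -0.597 and 0.95. Of 23 members 2 rose and 8 fell, with a median of 0.01 and of -0.19 against Control 5, and 1 in each direction was called with the split. The cardiomyocyte markers had 5 of 10 members lower and 0 higher by limma, with a median of -0.41 and of -0.39 against Control 5. In whole tissue, fewer cells of a type and less RNA per cell cannot be told apart.

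Calcium handling, which couples excitation to contraction, was lower in the called genes except 1. Ryr2, the calcium release channel of the sarcoplasmic reticulum, had 45248, 23540.5, 42297, 38479 and 24054 in Controls 1 to 5 and 12189.6, 14928 and 9521 in dnOGAh-Tg 3 to 5 (log2 change -1.48 with SE 0.24 and limma adjusted p = 0.00157). Controls 2 and 5 were the lowest Controls, and the difference from Control 5 was -1.002. Cacna1c, the pore of the L-type calcium channel, also had Controls 2 and 5 as the lowest Controls. It had 10723, 6772, 10696, 9204 and 6756 against 3836, 4700.2 and 3137 (log2 change -1.17 with SE 0.19 and limma adjusted p = 0.00159; -0.82 against Control 5). Cacna1g, the pore of a T-type calcium channel, fell from 1354–2338 to 622–834 (log2 change -1.24 with SE 0.17 and limma adjusted p = 0.000613). Atp2a2, the pump that refills the sarcoplasmic reticulum, had 486921, 363419, 457856, 430512 and 416047 in Control and 257224, 280423 and 146187 in dnOGAh-Tg (log2 change -0.97 with SE 0.22 and limma adjusted p = 0.0083), and its inhibitor Pln had 225503, 185437, 202153, 196378 and 198871 in Control and 120389, 118852 and 114296 in dnOGAh-Tg (log2 change -0.77 with SE 0.13 and limma adjusted p = 0.0023). For both genes the groups did not overlap, and Cacna1g, Atp2a2 and Pln differed from Control 5 by -0.76 to -0.92. With the split as a covariate Pln kept its call (-0.76, adjusted p = 0.0413 by limma), and Atp2a2, Ryr2 and Cacna1c were not called (-0.92, adjusted p = 0.138, -1.002, adjusted p = 0.0985 and -0.82, adjusted p = 0.0953). Of 22 members 9 fell and 1 rose, with a median of -0.31, and 2 fell with the split.

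Potassium and sodium channels and gap junctions, which shape and carry the action potential, were lower in most members. Kcnip2, the auxiliary subunit of the transient outward potassium current, had 3125, 2898, 2536, 2112 and 2878 in the Controls and 689, 569 and 559.7 in dnOGAh-Tg 3 to 5 (log2 change -2.15 with SE 0.14 and limma adjusted p = 7.83e-06), and 2531 and 2759 in the F11 libraries. Kcnv2, a silent partner of voltage-gated potassium channels, fell from 512–821 to 169–206 (log2 change -1.79 with SE 0.17 and limma adjusted p = 8.24e-05). The sulphonylurea receptors of ATP-sensitive potassium channels, Abcc8 and Abcc9, fell from 1572–1915 to 604–798 (log2 change -1.27 with SE 0.12 and limma adjusted p = 8.01e-05) and from 8281–15441 to 3562–4437 (log2 change -1.54 with SE 0.203 and limma adjusted p = 0.000575). Kcnq1, the pore of the slow delayed rectifier, fell from 1634–1734 to 909.8–988 (log2 change -0.82 with SE 0.09 and limma adjusted p = 0.00023). Gja1, the main ventricular gap junction protein connexin 43, fell from 10802–15288 to 6897–8006 (log2 change -0.81 with SE 0.13 and limma adjusted p = 0.0014). Of 28 members tested, 17 fell and 0 rose by limma, and in all of those called the 3 dnOGAh-Tg libraries were below Control 5. The median was -0.57, and -0.41 against Control 5. With the split 7 of the list were called lower. The 6 genes named here differed from Control 5 by -0.74 to -2.25 and also fell with the split as a covariate, the weakest being Gja1 (-0.74, adjusted p = 0.0451 by limma).

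Fatty acid oxidation, the main fuel pathway of the adult heart, fell in most members. Ucp3, a carrier of the inner mitochondrial membrane, had 1138, 1453, 1869.7, 797 and 1182 in Controls 1 to 5 and 398, 270.4 and 272 in dnOGAh-Tg 3 to 5 (log2 change -2.003 with SE 0.24 and limma adjusted p = 0.000324). Mlycd, which removes the malonyl-CoA that blocks fatty acid entry, fell from 2646–3718 to 1385–1601 (log2 change -1.04 with SE 0.13 and limma adjusted p = 0.000452). Cpt2, the inner-membrane carnitine palmitoyltransferase, fell from 8695–11264 to 4852–5492 (log2 change -0.89 with SE 0.11 and limma adjusted p = 0.000427). Pnpla2, the lipase that opens the triglyceride store, fell from 9973–12769 to 5982–6282 (log2 change -0.86 with SE 0.11 and limma adjusted p = 0.000396). Differences from Control 5 were -0.805 to -1.94 in these 4 genes. Of 34 members 20 fell and 0 rose by limma, with a median of -0.49 and of -0.58 against Control 5, and every called member was below Control 5 in all 3 dnOGAh-Tg libraries, with 10 called with the split. Cpt1b, the muscle palmitoyltransferase of the outer membrane, went from 151–272 to 88.9–174 with overlapping groups (log2 change -0.76 with SE 0.25 and limma adjusted p = 0.0353; -0.698 against Control 5), and lost its call without Control 1, 3 or 4 (adjusted p 0.0703 to 0.0776) or without dnOGAh-Tg 3 or 5 (0.061 and 0.172).

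Ppara, the nuclear receptor that drives these genes, split the Controls. It had 949.97, 308, 795, 835 and 206 in Controls 1 to 5, 919 and 297 in dnOGAh-Tg 1 and 2 and 125, 189 and 85.5 in dnOGAh-Tg 3 to 5 (log2 change -2.05 with SE 0.47 and limma adjusted p = 0.00834). Controls 2 and 5 lay between the other Controls and the dnOGAh-Tg libraries, and the change was -0.70 against Control 5. It was not called without dnOGAh-Tg 5 (-1.77, adjusted p = 0.052) or with the split as a covariate (-0.70, adjusted p = 0.509). Ppargc1a, its coactivator, fell from 2207–3553 to 1536–1783 (log2 change -0.73 with SE 0.16 and limma adjusted p = 0.00608), with -0.44 against Control 5. Regulators of mitochondrial biogenesis, to which it belongs, had 10 of 23 lower and 0 higher by limma, and 0 lower with the split. Of 17 tested target genes of PPAR alpha, 7 fell and 0 rose by limma (median -0.38), and 1 fell with the split. Pdk4, the kinase that shuts pyruvate dehydrogenase, was at 7922–23449 in Control and at 5142–12398 in dnOGAh-Tg and was not called (log2 change -0.87 with SE 0.34 and limma adjusted p = 0.0711; -0.14 against Control 5), but passed without Control 5 (-1.05, adjusted p = 0.0207) or dnOGAh-Tg 3 (-1.26, adjusted p = 0.0301). Angptl4, a lipoprotein lipase inhibitor that the same receptor induces, was not called (log2 change 0.28 with SE 0.399 and limma adjusted p = 0.608), with Control 3 at 680.4 and the other Controls at 158 to 276.

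Downstream of the fatty acids, 11 of 26 genes of the TCA cycle and pyruvate oxidation fell and 0 rose by limma (median -0.21; -0.42 against Control 5), and 4 fell with the split. Ogdh, the first subunit of the oxoglutarate dehydrogenase complex, fell from 68893–89553 to 39356–48425 (log2 change -0.83 with SE 0.13 and limma adjusted p = 0.00151), and Suclg2, a subunit of succinyl-CoA ligase, from 5364–6470.1 to 3182–3890.3 (log2 change -0.72 with SE 0.11 and limma adjusted p = 0.00113). Pdk1, another kinase that inhibits pyruvate dehydrogenase, also fell, from 8459–12278 to 4467–6014 (log2 change -0.99 with SE 0.15 and limma adjusted p = 0.00111). Breakdown of ketones and branched-chain amino acids had 13 of 23 members lower and 1 higher (median -0.39), and 6 lower and 1 higher with the split. Among them Mccc2, of leucine breakdown, went from 2069.99–2719.6 to 1424–1574 (log2 change -0.65 with SE 0.11 and limma adjusted p = 0.00196), and Dbt, of the branched-chain ketoacid dehydrogenase, from 2260.1–3480.3 to 1423–1797 (log2 change -0.85 with SE 0.15 and limma adjusted p = 0.00229). Glycolysis and glycogen genes had 10 of 28 lower and 2 higher, and 2 lower and 0 higher with the split by limma. Pygb, a glycogen phosphorylase, fell from 20014–25678 to 9958–13105 (log2 change -0.91 with SE 0.13 and limma adjusted p = 0.000838), while Slc16a3, a lactate exporter, rose from 34.95–107 to 163–222 (log2 change 1.73 with SE 0.296 and limma adjusted p = 0.00208). The 6 falls named here were -0.63 to -0.92 against Control 5, and Slc16a3 was 1.59.

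Respiratory chain and ribosomal protein genes gave a different result against the Controls 1 to 4 than against Control 5. Of 74 nuclear genes of oxidative phosphorylation, 40 were called higher and 0 lower by limma, with a median of 0.56. Against Control 5 the median was -0.104, the 3 dnOGAh-Tg libraries were above Control 5 in 3 of the 40, and with the split as a covariate limma called 0 members higher and 1 lower. Ndufb3, a subunit of complex I, shows the gap between the Controls, with 3382, 3626, 3238 and 3914 in Controls 1 to 4 and 9084 in Control 5. It had 6377 and 8531 in the F11 libraries and 11726, 9228 and 12918 in dnOGAh-Tg 3 to 5 (log2 change 1.39 with SE 0.29 and limma adjusted p = 0.0052; 0.30 against Control 5). Ndufb3 is 1 of the 3 called members with all 3 dnOGAh-Tg libraries above Control 5. Relative to the mean of Controls 1 to 4, the median of the list was 0.73 in Control 5, 0.19 and 0.59 in dnOGAh-Tg 1 and 2, and 0.75, 0.49 and 0.88 in dnOGAh-Tg 3, 4 and 5. Control 5 thus lay within the range of the dnOGAh-Tg libraries. Of 7 tested genes of the mitochondrial genome, 1 fell and 0 rose by limma.

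Cytosolic ribosomal protein genes had 58 of 74 members higher and 0 lower by limma, with a median of 0.62. Against Control 5 the median was 0.203, 30 of the 58 had all 3 dnOGAh-Tg libraries above Control 5, and 1 was called with the split as a covariate. Rpl3, a protein of the large subunit, is that exception among the genes named by the rule, with 2457, 3149, 2294, 2331 and 2625 in Controls 1 to 5 and 5276, 4010.1 and 5359.5 in dnOGAh-Tg 3 to 5 (log2 change 0.92 with SE 0.14 and limma adjusted p = 0.00107; 0.88, adjusted p = 0.0324 with the split). Rpl37a, a small protein of the same subunit, had 2528 in Control 5, against 959.95, 1034, 1079 and 1319 in Controls 1 to 4 and 3405, 2812 and 3702 in dnOGAh-Tg 3 to 5 (log2 change 1.35 with SE 0.27 and limma adjusted p = 0.00412; 0.38 against Control 5). Ribosomal protein genes have many processed copies, and no source used here says how reads that match several places were counted.

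**Figure D3:**
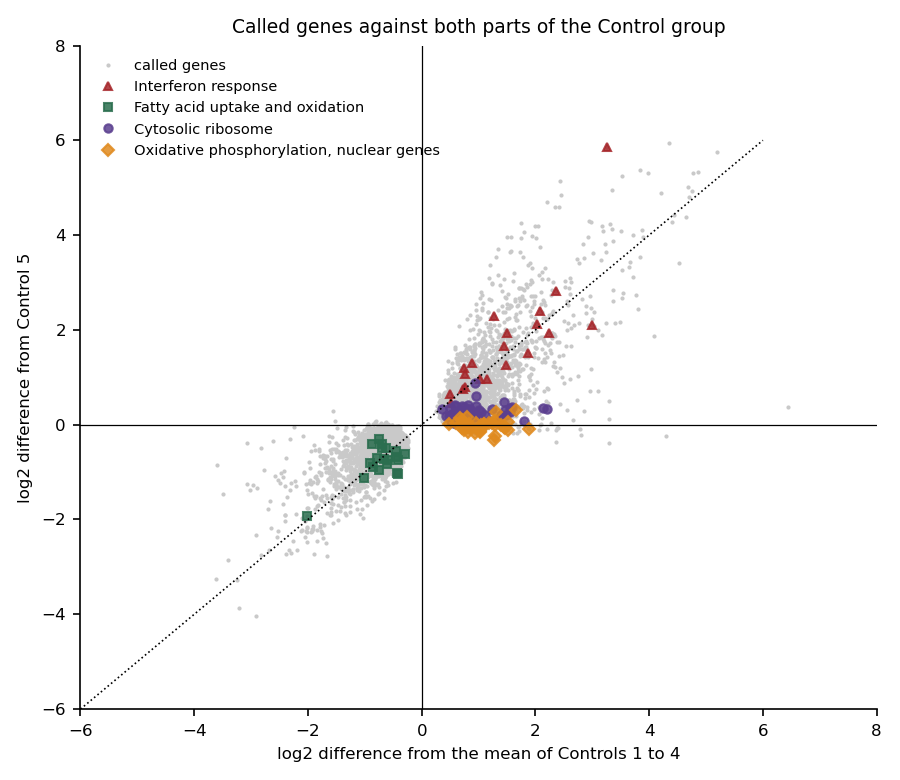
Genes called at 2 weeks, with the log2 difference of dnOGAh-Tg 3 to 5 from the mean of Controls 1 to 4 on the x axis and from Control 5 on the y axis; each point is 1 gene, coloured points are called members of 4 lists, the dotted line marks equal values and solid lines mark 0. Oxidative phosphorylation genes lie along 0 on the y axis, with a median over the tested members of -0.104 against Control 5. Interferon genes (1.23) and fatty acid genes (-0.58) differ from both parts of the Control group. The interferon value includes Cxcl10 and Mx1, whose direction the filter fixed.

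Interferon response genes, which cells switch on against viruses and foreign or misplaced nucleic acid, were higher in nearly the whole list. Isg15, a ubiquitin-like protein (chromosome 4, 156283912 to 156285253 on GRCm39), had 46.2, 59.2, 63.8, 78.99 and 48.7 in Controls 1 to 5, 40.2 and 83.3 in the F11 libraries and 199.7, 277 and 318 in dnOGAh-Tg 3 to 5 (log2 change 2.14 with SE 0.22 and limma adjusted p = 0.000143). Irf7, the transcription factor that amplifies interferon production, had 97.4, 103, 138, 147 and 148 in Control and 381, 664 and 728 in dnOGAh-Tg (log2 change 2.18 with SE 0.23 and limma adjusted p = 0.000161). Ifit3, an antiviral protein with tetratricopeptide repeats, had 42.4, 52.9, 48.4, 67.2 and 37.3 in Control and 174, 321 and 351 in dnOGAh-Tg (log2 change 2.45 with SE 0.26 and limma adjusted p = 0.000171). Usp18, the protease that removes Isg15 from proteins, had 27.5, 41.6, 43.97, 44.5 and 49.7 in Control and 126, 145 and 163 in dnOGAh-Tg (log2 change 1.799 with SE 0.22 and limma adjusted p = 0.00039). Against Control 5 the 4 genes differed by 1.52 to 2.82. In each of them, the lowest dnOGAh-Tg library was more than 2-fold above the highest Control, and the F13 library was the lowest of the 3. Of the 24 members, Cxcl10 and Mx1 reached 10 only in the dnOGAh-Tg columns. Of the other 22 members 19 rose and 0 fell by limma, with a median of 0.99, and 18 of those that rose had all 3 dnOGAh-Tg libraries above Control 5. With the split as a covariate 12 of them rose, and in the F14 libraries alone 12. The list median relative to Controls 1 to 4 was -0.14 and 0.005 in the F11 libraries and 0.77, 1.06 and 1.39 in dnOGAh-Tg 3, 4 and 5. These medians are over all 24 members, Cxcl10 and Mx1 included.

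Since the interferon genes moved together, stretches of 4 of their promoters are shown. STAT and IRF proteins bind the interferon-stimulated response element, searched here as 2 copies of GAAA with 2 bases of any kind between them, on both strands, in the 250 bases before each RefSeq gene start on GRCm38.p6. On the other strand the copies read TTTC, and matches can overlap. It was present in 936 of 27025 genes (3.46%) and in 355 of 11157 tested genes with a promoter in the table (3.18%). Of the 24 interferon genes 18 had a promoter there, and 10 of them (55.6%) held the motif, among them 9 of the 16 that were called higher. Cxcl10 is counted among those called higher, though the filter fixed its direction. A match is a description of the letters and not a site. The 4 shown hold it, and Bst2 and Cxcl10 were taken after their values were seen. Each stretch is 100 bases in the direction of the gene, with the motif in capitals. They lie at chr4:156200836-156200935 (minus strand), chr19:34583345-34583444 (plus strand), chr5:92349040-92349139 (minus strand) and chr8:71537545-71537644 (minus strand).
Isg15: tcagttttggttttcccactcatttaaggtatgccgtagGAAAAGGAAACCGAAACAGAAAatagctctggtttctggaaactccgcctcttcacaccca
Ifit3: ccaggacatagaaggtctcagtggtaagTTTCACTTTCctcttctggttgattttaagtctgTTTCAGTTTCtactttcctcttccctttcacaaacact
Cxcl10: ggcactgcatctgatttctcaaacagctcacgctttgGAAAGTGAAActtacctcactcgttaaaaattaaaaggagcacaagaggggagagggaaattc
Bst2: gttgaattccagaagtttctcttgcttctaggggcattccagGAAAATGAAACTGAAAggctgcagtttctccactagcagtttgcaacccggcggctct

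Isg15 holds 3 overlapping matches, Ifit3 and Bst2 2 each and Cxcl10 1. Cxcl10, a chemokine for T cells that interferon induces, had 6.24, 5.04, 4.397, 4.54 and 0 in Controls 1 to 5 and 57.9, 69.3 and 45.6 in dnOGAh-Tg 3 to 5 (log2 change 3.78). Bst2, a membrane protein that tethers budding viruses, had 184, 319, 206, 281 and 279.7 in Control and 579, 675 and 781 in dnOGAh-Tg (log2 change 1.43 with SE 0.19 and limma adjusted p = 0.000588). Cxcl10 reached 10 only in the dnOGAh-Tg columns and is described without a test. Bst2, with all 3 dnOGAh-Tg libraries above every Control, differed from Control 5 by 1.26, and Cxcl10 was at 0 in that library.

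Macrophage markers were higher in the same libraries. The complement genes C1qa, C1qb and C1qc, which tissue macrophages make, rose from 667–1090.4, 514–834 and 529–793 to 1974–2489, 1522–1686 and 1455–1669 (log2 changes 1.41, 1.38 and 1.34; 1.49 to 1.59 against Control 5). Cd68, a lysosomal protein of phagocytes, had 145, 174, 176, 191 and 149 in the Controls and 343, 469.5 and 532 in dnOGAh-Tg 3 to 5 (log2 change 1.405 with SE 0.17 and limma adjusted p = 0.000331; 1.56 against Control 5). Of 10 macrophage markers 6 rose and 0 fell by limma, 5 rose with the split, and none was at 0. Their summed level ranged from 3673 to 5299.6 in Control, from 8716 to 9327 in dnOGAh-Tg 3 to 5, and was 4774 and 5298 in the F11 libraries. These sums move with Saa3, Mmp12, Ccl8, Spp1, Il1rn and the interferon genes, and their part in those rises was not tested. Lymphocyte and neutrophil markers were sparse, with 4 and 1 of 10 tested. Nkg7, of cytotoxic lymphocytes, had 1.25, 2.52, 5.496, 4.54 and 0 in Control and 12.1, 12.7 and 20.5 in dnOGAh-Tg (log2 change 2.34), and since it reached 10 only in the dnOGAh-Tg columns it is described without a test.

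Other cell types changed in fewer markers. Among epicardial markers Aldh1a2, which makes retinoic acid, rose from 48.7–104 to 372–431 (log2 change 2.44 with SE 0.22 and limma adjusted p = 6.78e-05; 3.001 against Control 5). Of 5 epicardial markers tested 2 rose, with a list median of 0.73 and of 0.39 against Control 5. Endothelial markers had 3 of 10 lower and 1 higher, with Kdr, the main receptor for VEGF, at 6279–8891 in Control and 4849.5–5830.3 in dnOGAh-Tg (log2 change -0.48 with SE 0.14 and limma adjusted p = 0.0201), not called without Control 4 (-0.43, adjusted p = 0.0511) or dnOGAh-Tg 3 (-0.41, adjusted p = 0.0938). Against Control 5 Kdr stood at -0.22, 1 of the 3 lower and 0 of the 1 higher had all 3 dnOGAh-Tg libraries beyond that library, and 0 endothelial markers were called with the split by limma (-0.22, adjusted p = 0.542 for Kdr). Fibroblast markers had 1 of 10 higher, Postn, and mural markers 1 higher and 2 lower. Their medians were 0.22 and -0.13, and 0.33 and -0.12 against Control 5. In the F14 libraries limma called 3 fibroblast markers higher and 0 lower. None of 5 erythroid and 8 adipocyte markers was called by limma. Schwann cell markers had 2 of 9 lower, both below Control 5 in all 3 dnOGAh-Tg libraries, but the list median turned from -0.31 to 0.21 against Control 5. Atrial markers had 2 of 7 higher, Nppa and Stard10, the latter at 0.37 against Control 5 and not called without dnOGAh-Tg 3 (0.66, adjusted p = 0.0591) or 4 (0.62, adjusted p = 0.0525). Sln, an inhibitor of the calcium pump that atria express, was not tested because it passed 10 in too few columns, with 4.99, 1112, 6.59, 0.908 and 60.1 in Controls 1 to 5 and 3.73, 6.83 and 3.42 in dnOGAh-Tg 3 to 5. Myl4, the atrial essential light chain, was not called and had 89.9, 5052, 57.2, 80.8 and 258 in Control and 143, 137 and 145 in dnOGAh-Tg (log2 change -0.65 with SE 1.14 and limma adjusted p = 0.679). Control 2 was the highest Control for Sln, Myl4 and Nppa, and dnOGAh-Tg 3 to 5 did not share its levels of Sln and Myl4.

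**Figure D4:**
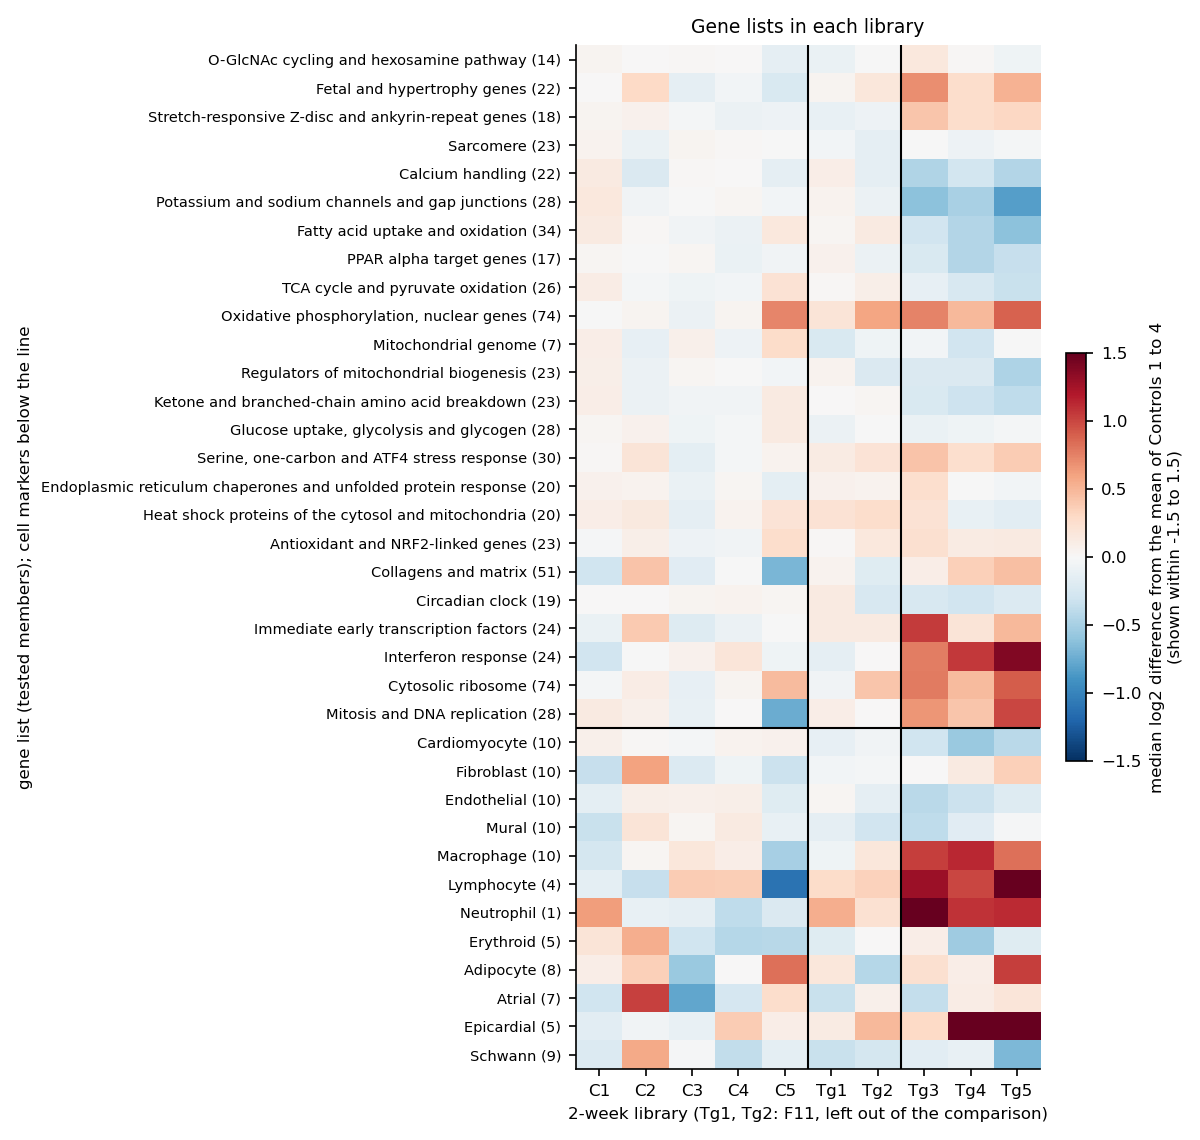
Median log2 difference of each gene list from the mean of Controls 1 to 4, one column per 2-week library and one row per list with its number of tested members; colours are limited to -1.5 to 1.5 and cell marker lists stand below the horizontal line. Interferon and macrophage genes are high in Tg3, Tg4 and Tg5, whereas oxidative phosphorylation genes are high in Control 5 (0.73) as well.

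Matrix genes and proteins of the wound response rose in part. Tnc, a matrix protein of injured and developing tissue, had 32.5, 74.3, 41.8, 47.2 and 13.5 in the Controls, 54.9 and 44.2 in the F11 libraries and 575, 453 and 636 in dnOGAh-Tg 3 to 5 (log2 change 3.87 with SE 0.41 and limma adjusted p = 0.000171). Postn, made by activated fibroblasts, had 1024, 2492, 1133, 1347 and 785 in Control and 3851, 3267 and 7342 in dnOGAh-Tg (log2 change 1.85 with SE 0.34 and limma adjusted p = 0.00282). Adamts8, a metalloprotease released into the matrix, had 17.5, 57.9, 15.4, 15.4 and 21.8 in Control and 106, 90.8 and 122 in dnOGAh-Tg (log2 change 2.202 with SE 0.39 and limma adjusted p = 0.00258), with Control 2 above the other Controls. Ogn, a small leucine-rich proteoglycan, fell from 3392–5044 to 2138–2804 (log2 change -0.93 with SE 0.15 and limma adjusted p = 0.00142). Col1a1, a chain of type I collagen, was not called (4897, 9247, 4880.2, 5663 and 2826 against 6435, 8726 and 11784, log2 change 0.77 with SE 0.305 and limma adjusted p = 0.0713), but passed without Control 2 (0.98, adjusted p = 0.0136), in the F14 libraries (1.25, adjusted p = 0.0412) and with the split (1.62, adjusted p = 0.0236). The split estimate is the same difference as that from Control 5 alone and rests on that 1 Control. Of 51 members 13 rose and 3 fell, with a median of 0.47, and 17 rose and 1 fell with the split. Control 5 was the lowest Control in Tnc, Postn and Col1a1, which differed from it by 1.62 to 5.25. Adamts8 and Ogn differed from it by 2.23 and -0.504, and the list median against it was 0.998.

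Some genes of cell division rose, from low levels. Birc5, which encodes the mitotic protein survivin, rose from 13.5–28.7 to 54.7–92.4 (log2 change 1.998 with SE 0.304 and limma adjusted p = 0.00121), and Tyms, of thymidylate synthesis, from 39.04–69.9 to 82.97–127 (log2 change 1.04 with SE 0.24 and limma adjusted p = 0.00766). Ccnd2, a D-type cyclin, fell from 3192–3507 to 2093–2573 (log2 change -0.51 with SE 0.099 and limma adjusted p = 0.00376). Of 28 members 11 rose and 1 fell (15 and 0 with the split by limma), with a median of 0.87 and of 1.58 against Control 5, where the list was lowest (-0.75 relative to Controls 1 to 4). Birc5, Tyms and Ccnd2 differed from that library by 2.398, 1.15 and -0.44. Immediate early transcription factors, induced within minutes of a stimulus, had 10 of 24 higher and 0 lower by limma. With the split 3 were called higher. Myc, a driver of growth and ribosome synthesis, rose from 49.7–108 to 179–319 (log2 change 1.76 with SE 0.27 and limma adjusted p = 0.00123; 2.199, adjusted p = 0.00955 with the split as a covariate). The list median relative to Controls 1 to 4 was 1.05 in dnOGAh-Tg 3 and 0.196 and 0.48 in the F14 libraries.

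Stress responses rose in selected genes. Mthfd2, the mitochondrial folate enzyme that ATF4 induces, had 126, 141, 68.1, 79.9 and 80.8 in Controls 1 to 5, 155 and 255 in the F11 libraries and 309.8, 248 and 219.99 in dnOGAh-Tg 3 to 5 (log2 change 1.42 with SE 0.25 and limma adjusted p = 0.00222). Atf4 itself rose from 1903–2935 to 3353–4451 (log2 change 0.66 with SE 0.15 and limma adjusted p = 0.00757), and so did Slc7a5, an importer of large amino acids, from 204–303 to 407–428 (log2 change 0.86 with SE 0.15 and limma adjusted p = 0.00214). Ddit3, the stress transcription factor CHOP, rose from 403–712 to 746–1189.99 (log2 change 0.88 with SE 0.204 and limma adjusted p = 0.00891), not called without dnOGAh-Tg 5 (0.74, adjusted p = 0.0526). Vldlr, a lipoprotein receptor that ATF4 can induce, fell from 8594–13610.4 to 3657–5343 (log2 change -1.21 with SE 0.18 and limma adjusted p = 0.00116). Of 30 members of that list 12 rose and 3 fell, and 3 rose with the split as a covariate. Against Control 5, Mthfd2, Atf4, Slc7a5 and Ddit3 differed by 0.47 to 1.65 and Vldlr by -0.87. Among chaperones of the endoplasmic reticulum 7 of 20 rose and 3 fell, with Manf, a secreted stress factor, at 901–1422 and 1868–2342 (log2 change 0.79 with SE 0.15 and limma adjusted p = 0.00342; 0.53 against Control 5). With the split 0 of these chaperones were called by limma.

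Of the genes against oxidative stress, Mt2, a metal-binding metallothionein, had 76.1, 123, 104, 75.4 and 199.96 in the Controls and 852, 651 and 937 in dnOGAh-Tg 3 to 5 (log2 change 2.88 with SE 0.28 and limma adjusted p = 0.000115; 2.002 against Control 5). Gpx1, a glutathione peroxidase, rose from 1763–2839.8 to 4518–5041 (log2 change 1.14 with SE 0.16 and limma adjusted p = 0.000849), and Hmox1, heme oxygenase, from 203–294 to 441–565 (log2 change 0.91 with SE 0.15 and limma adjusted p = 0.00175). Gclm, of glutathione synthesis, fell from 649–838 to 451–523 (log2 change -0.601 with SE 0.12 and limma adjusted p = 0.00471). The last 3 stood at 0.73, 0.72 and -0.704 against Control 5. Of 23 members 7 rose and 1 fell, with 1 of each called with the split, and the median turned from 0.104 to -0.104 against Control 5. Heat shock proteins had 2 of 20 higher and 1 lower. Hspb1, a small one of the cytosol, rose from 2221–4278 to 6523–8318 (log2 change 1.17 with SE 0.19 and limma adjusted p = 0.00175; 0.77 against Control 5), and Trap1, the mitochondrial one of the HSP90 family, fell from 5707–6455 to 2367–3299 (log2 change -1.03 with SE 0.12 and limma adjusted p = 0.000324; -1.13, adjusted p = 0.0059 with the split as a covariate).

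The largest falls were of muscle and metabolic genes. Mylk4, a kinase of the myosin light chain in striated muscle (ENSMUSG00000044951), had 5173, 2516, 5477, 4179 and 4234 in Controls 1 to 5, 3778 and 2604 in the F11 libraries and 415, 555 and 364 in dnOGAh-Tg 3 to 5 (log2 change -3.25 with SE 0.23 and limma adjusted p = 1.44e-05). Adhfe1, a mitochondrial alcohol dehydrogenase that oxidises hydroxybutyrate, had 2664, 2271, 2621, 2485 and 2742 in Control and 591, 621 and 546 in dnOGAh-Tg (log2 change -2.12 with SE 0.102 and limma adjusted p = 1.10e-06), and its 3 dnOGAh-Tg values lay close together. Abca12, a lipid transporter, had 198, 159.9, 212, 223 and 186 in Control and 25.2, 27.3 and 28.5 in dnOGAh-Tg (log2 change -2.81 with SE 0.17 and limma adjusted p = 4.73e-06). Zc3h6, a zinc finger protein, had 276, 249, 321, 248 and 334 in Control and 49.5, 41.0 and 72.9 in dnOGAh-Tg (log2 change -2.399 with SE 0.199 and limma adjusted p = 4.63e-05). Hif3a, a hypoxia-inducible factor subunit that can restrain the others, fell from 43.6–104 to 1.87–22.8 (log2 change -2.47 with SE 0.58 and limma adjusted p = 0.00923), and Kif28, a kinesin-like motor gene, from 44.1–78.6 to 11.4–22.4 (log2 change -2.04 with SE 0.29 and limma adjusted p = 0.00081). Scd4, a fatty acid desaturase (-2.67, SE 0.39), and Mfsd4b3-ps, annotated as a pseudogene (-2.12, SE 0.26), have close relatives, so their reads are less certain. The falls were selected in the same way as the rises, so neither a difference from Control 5 nor a call kept with the split is a check. The 8 genes of this paragraph differed from Control 5 by -2.03 to -3.27. Of these and Kcnip2, which is also among the largest falls, 8 kept their calls with the split as a covariate and Hif3a did not (-2.25, adjusted p = 0.189 by limma).

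In the O-GlcNAc pathway itself, the list median was 0.09, and 0.05 against Control 5. Ogt had 3277, 2527, 3796, 3191 and 2488 in Controls 1 to 5 and 2332, 2511 and 2202 in dnOGAh-Tg 3 to 5 and was not called (log2 change -0.36 with SE 0.14 and limma adjusted p = 0.0695). It passed without Control 2 (-0.43, adjusted p = 0.037), without Control 5 (-0.43, adjusted p = 0.0207) and by DESeq2 (-0.38, adjusted p = 0.0478), and stood at -0.09 against Control 5. Gnpda2, which turns glucosamine phosphate back to fructose phosphate, fell from 363–441 to 241–358 (log2 change -0.54 with SE 0.15 and limma adjusted p = 0.0164), not called without dnOGAh-Tg 3 (-0.41, adjusted p = 0.0839). Control 5 was the lowest Control at 363, and the change from it was -0.32 (-0.32, adjusted p = 0.423 with the split). Counting Oga, which the rule selected, 2 of 14 members were called higher and 3 lower, beside 16.5% and 17.3% of all genes. With the split 1 was called higher, again counting Oga, and 0 lower by limma. Circadian genes had 5 of 19 lower and 0 higher by limma, among them Per3, at 361–519.9 in Control and 225–336 in dnOGAh-Tg (log2 change -0.71 with SE 0.16 and limma adjusted p = 0.00844; -0.698 against Control 5). With the split 1 circadian gene was called lower and 0 higher by limma, and Per3 was not called (-0.698, adjusted p = 0.139). The labels give no time of day of tissue collection.

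The 24-week libraries, 5 of each group, share none with the comparison above. Limma called 1662 genes higher (11.3%) and 1634 lower (11.1%) there, of 14676. Of 2390 genes called higher at 2 weeks and tested at both times, 732 were also called higher at 24 weeks, 30.6% beside 11.1% of all genes tested at both times, and 7 were called lower (0.293%). Of 2569 called lower at 2 weeks, 970 were called lower at 24 weeks, 37.8% beside 11.2%, and 21 higher (0.817%). The tables were normalized separately, so changes and not levels are set side by side.

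Nppa changed by 3.97 (SE 0.38, limma adjusted p = 1.81e-05) at 24 weeks, Ankrd2 by 4.64 (SE 0.29, limma adjusted p = 1.04e-06), Mylk4 by -4.33 (SE 0.199, limma adjusted p = 6.90e-08) and Kcnip2 by -2.47 (SE 0.41, limma adjusted p = 0.00103). At 2 weeks these stood at 4.79, 4.59, -3.25 and -2.15. Adamts8 changed by 5.26 (SE 0.16, limma adjusted p = 1.06e-09) and Mthfd2 by 3.21 (SE 0.33, limma adjusted p = 2.96e-05), against 2.202 and 1.42 at 2 weeks. Among the inflammatory genes, Ccl8 changed by 1.99 (SE 0.46, limma adjusted p = 0.00713), Mmp12 by 1.16 (SE 0.78, limma adjusted p = 0.319), Spp1 by 1.06 (SE 0.47, limma adjusted p = 0.133) and C1qa by 0.399 (SE 0.25, limma adjusted p = 0.276), and Saa3 and Il1rn passed 10 in too few columns to be tested. Fatty acid genes had 28 of 34 members lower at 24 weeks and channels 18 of 28. Interferon genes had 3 of 23 higher with a median of 0.22, macrophage markers 0 of 10 by limma with a median of 0.396. Nuclear genes of oxidative phosphorylation had 13 lower and 0 higher, with a median of -0.34, and ribosomal protein genes 1 higher, with a median of -0.01. Whether a change differs between the times was not tested here.

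**Figure D5:**
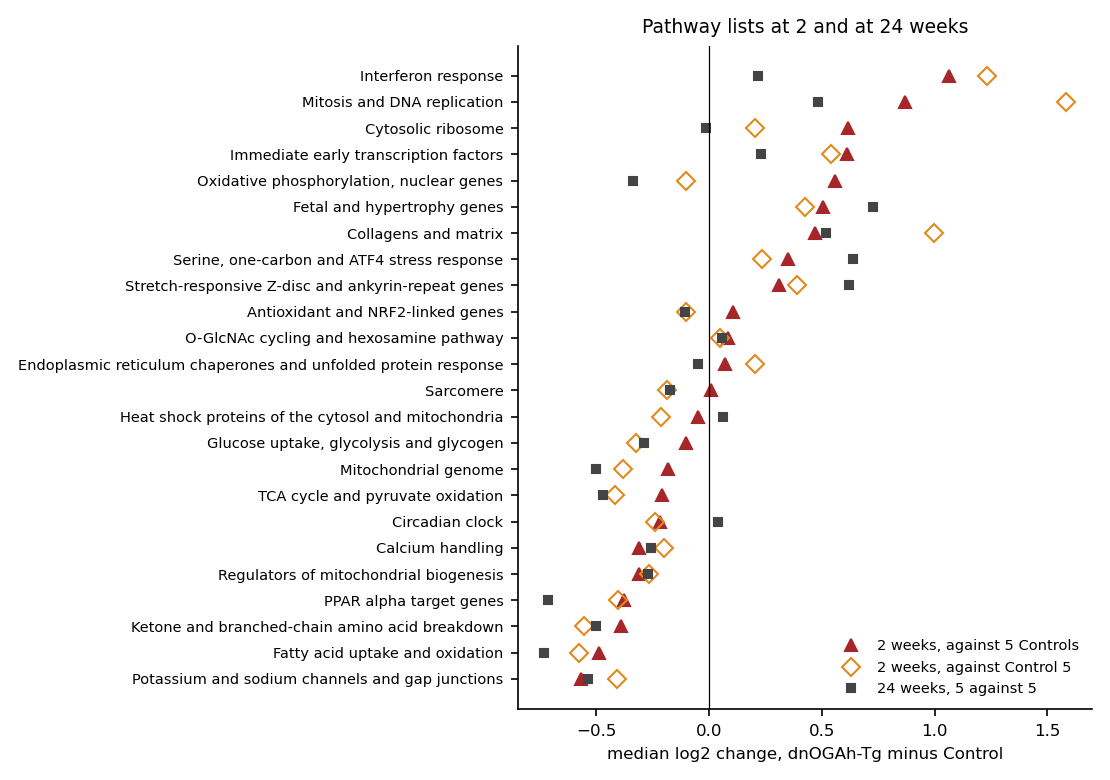
Median log2 change over the tested members of each pathway list, for dnOGAh-Tg 3 to 5 against the 5 Controls at 2 weeks (triangles), the same libraries against Control 5 alone (diamonds) and 5 against 5 libraries at 24 weeks (squares). The interferon list stands at 1.06, 1.23 and 0.22, and the fatty acid list at -0.49, -0.58 and -0.73.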

How the data were processed

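RNA-seq of mouse left ventricle was analysed in 8 of the 10 libraries of the 2-week table, with the 24-week table beside it. Per the labels' protocols, a column kit made for fibrous tissue gave the RNA. Named in the submitters' processing notes are the build GRCm39, DESeq2 (no version), R 4.0.3, STAR 2.7.3a, cutadapt 2.6 and Trim Galore 0.6.6. No source used here gives the read counter, annotation or strand, so overlapping and antisense genes are not told apart. The authors deposited a normalized signal, namely read counts divided by 1 size factor per library. Whole reads were recovered from it, since 100% of values above 0 were whole multiples of a step per column within 0.01 of a read.

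Genes that reached 10 in 3 or more of the 8 columns (at 24 weeks, in 5 or more of 10) were tested with limma-trend (limma 3.58.1, R 4.3.3) on log2(value + 1), two-sided, with Benjamini-Hochberg adjustment over 15007 genes and a threshold of 0.05. The F11 dnOGAh-Tg libraries were left out by the rule, which used Oga. The covariate for the split marks libraries with more than 5 reads of Gm37194. The procedure was tested on simulated data. Counting error per gene follows from 22804712 to 31906006 reads per library.

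Named genes are the 10 largest rises and falls (a group mean of at least 50 and groups that do not overlap, without predicted models), a fixed list of genes, and the 4 members or fewer of each list with the smallest p. Bst2, Cxcl10 and Myl4 were chosen after their values were seen. Not all genes the rule takes are reported here. The members and lists were chosen with earlier results of these data known. Alternatives were pseudocounts of 0.5 and 5, filters, quantile and TMM normalization, robust moderation, edgeR 4.0.16 and DESeq2 1.42.0 on recovered reads, a replicate block, the F14 libraries only, Control 5 alone, the split as covariate, the F11 dnOGAh-Tg libraries as a group of their own or joined to the others, limits of 2-fold and 0.01, and leaving out each library. Promoter sequences are from RefSeq on GRCm38.p6, matched by symbol alone, and coordinates of the 2 builds were not mixed.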

Additional observations from a re-analysis of the deposited data

Results flagged for a closer look

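Among the genes named above, 1 Control stood apart from the other 4 in the following, by a gap large beside the whole range of the 5 (Dixon's ratio). Chance gives this in about 1 in 20 groups, and many genes were looked at, so some flags arise by chance alone. Gm37194 and Cebpb were known beforehand to differ in Control 5, so their flags were fixed in advance. All values are normalized read counts. Control 5 was at 1866 for Cebpb (the other Controls 124 to 164), at 117 for Gm37194 (0 to 1.26), at 9084 for Ndufb3 (3238 to 3914) and at 2528 for Rpl37a (959.95 to 1319). It was low in Gnpda2, at 363 (436 to 441), and in Ogn, at 3392 (4821 to 5044). Control 2 was at 5052 for Myl4 (57.2 to 258), 1112 for Sln (0.908 to 60.1), 11414 for Nppa (2081 to 3243), 86.9 for Timp1 (14.98 to 24.5), 57.9 for Adamts8 (15.4 to 21.8) and 303 for Slc7a5 (204 to 227). Control 3 was at 680.4 for Angptl4 (158 to 276) and 6.59 for Mmp12 (0.908 to 1.26) and Control 1 at 103.6 for Hif3a (43.6 to 56.1). Control 2 leads Sln, Myl4 and Nppa, which are atrial markers; the part of atrial tissue in these values was not tested.

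Saa3 averaged 83.3 in dnOGAh-Tg 3 to 5, each above the Control mean, and 0.283 in the F11 dnOGAh-Tg libraries, both below it. This difference between dnOGAh-Tg libraries was not tested.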

How the results depend on the processing

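Counts of genes called higher and lower stayed within 1.5 times of 2475 and 2589 with both pseudocounts, all 3 filter settings, quantile and TMM normalization, robust moderation, edgeR (2558 and 2427), DESeq2 (2678 and 2910) and the F11 dnOGAh-Tg libraries as a group of their own. They were 648 and 528 in the F14 libraries only, 714 and 321 against Control 5 alone, where the lone Control is assumed to vary like the dnOGAh-Tg libraries, 582 and 412 with the Gm37194 split as a covariate, 0 and 0 with all 5 dnOGAh-Tg libraries (limma; 3664 genes at an unadjusted p under 0.05, smallest adjusted p 0.116), 878 and 425 at 2-fold or more and 1016 and 1029 at an adjusted p under 0.01. Leaving out 1 library gave 1285 to 3104 higher and 1376 to 3284 lower. Called genes with all 3 dnOGAh-Tg libraries on the side of the call from Control 5 numbered 4405, and in the same settings 1171, 1035, 994, 0, 1192 and 2023 (2594 to 4744 leaving out 1 library). The median share of the change left against Control 5, 0.718, was 0.951, 1.23, 1.27, no value, 0.874 and 0.827 (0.588 to 0.819). Calls shared with 24 weeks, 1702, were 719, 589, 568, 0, 510 and 1017 (1228 to 1833). Fewer samples in the F14 and Control 5 fits lower such counts by construction. Both the Control 5 fit and the split fit estimate the difference from Control 5 itself. Their calls are therefore selected for that difference, and their counts and shares against Control 5 are no check of it. The main calls use Control 5 as 1 of 5 Controls and are partly selected for it too. Calls made without Control 5 gave 4623 and a share of 0.588. Other causes were not tested.

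Of 88 called genes named in the text, leaving out those that reached 10 in dnOGAh-Tg columns alone, 69 kept the call in the F14 libraries, 59 against Control 5 alone, 57 with the split and 0 with all 5 dnOGAh-Tg libraries (limma), while 81 to 88 kept it when 1 library was left out. With the split the lost calls were Adamts8, Atf4, Atp2a2, Cacna1c, Ccnd2, Cmya5, Cpt1b, Dbt, Ddit3, Gm37194, Gnpda2, Gpx1, Hif3a, Hmox1, Hspb1, Kdr, Manf, Myh6, Ndufb3, Ogdh, Ogn, Per3, Ppara, Ppargc1a, Rpl37a, Ryr2, Slc16a3, Stard10, Tyms and Vldlr. The largest rises and falls among the 88 were ranked partly by their difference from Control 5, which favours keeping their calls there. The split was made from reads of Gm37194, so the loss of that gene's call was fixed in advance. For the other genes the cause was not tested. Gm37194 was not called by edgeR (adjusted p 0.0682) or DESeq2 (0.261), nor Cebpb by edgeR (0.144). Cebpb turned to -0.38 (adjusted p 0.320 and 0.356 in the fit against Control 5 alone and with the split; over its alternatives -0.38 to 3.299, adjusted p 1.46e-06 to 0.356). With a replicate block the counts were 2094 and 2243, Gnpda2 lost its call, and Col1a1 (1.03, adjusted p = 0.0212) and Pdk4 (-0.76, adjusted p = 0.00414) gained one. Of the same-numbered pairs Control and dnOGAh-Tg 3, 4 and 5, the deviations correlated at -0.01, 0.16 and 0.07. Pairs with unlike numbers ranged from -0.17 to 0.19. So few correlations cannot show whether the numbers pair the samples. At 22804712 reads or more per library, genes such as Saa3 and Il1rn with under 10 counts in Controls have changes limited by counting error.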
